A study of Mus musculus with 50 samples.

Results

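Gene expression in the spleen was compared between 9 h and 3 h after a single injection of CpG oligodeoxynucleotides (ODN) into BALB/c mice. The comparison rests on 8 of the 50 arrays of the series, namely 4 arrays titled for 9 h and 4 titled for 3 h, and it covers all 15264 named genes that were measured on over 70% of the 34 BALB/c arrays. Mice of both groups were female and wild type, and both received 400 µg of an equimolar mixture of the phosphorothioate CpG ODN 1555 and 1466 into the peritoneal cavity. The 9 h and 3 h groups thus differ in the time between injection and removal of the spleen, and the series text speaks of 4 independent experiments at each time. A set of 6 arrays of untreated female BALB/c spleens served as the baseline from which a rise or a fall was defined. On each array, whole-spleen RNA labelled with Cy5 was hybridised together with Universal Mouse Reference RNA in Cy3. A level below is the log2 ratio of spleen over reference after each array was centred on its median, and a difference is the difference of such levels on the same log2 scale. Errors of differences are standard errors (SE) of the fit, errors of levels are standard deviations (SD), and n = 4 arrays at each time unless stated otherwise. The mean level of a gene list covers its members measured on all 8 arrays. A control ODN group was examined at 3 h and not at 9 h, so a response to the injection itself at 9 h was not tested.

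Toll-like receptor 9 (TLR9) is an endosomal receptor for DNA with unmethylated CG dinucleotides, and in the mouse it is found on B cells, dendritic cells and macrophages. Through the adaptor MyD88 it activates NF-kB and the MAP kinases, which induce genes of chemokines, cytokines and their own inhibitors, and in plasmacytoid dendritic cells it activates IRF7 and with it type I interferon. Interferons then act on neighbouring cells through JAK kinases and STAT factors and induce a large set of antiviral and antigen-presentation genes. Many transcripts of the early NF-kB response carry AU-rich elements and are short-lived, while many interferon-induced transcripts last longer.

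The 8 arrays held between 29539 and 30544 measured probes each, and no 2 of them had identical values. The median residual SD of a gene over the fit was 0.299. Genes of exocrine pancreas, an organ that touches the spleen, were high on 4 of the 8 arrays. Their mean level over 17 genes was 0.244, 6.54, 5.31 and 0.422 on 9 h replicates 1 to 4, against 5.37, 0.167, 5.78 and 0.263 on 3 h replicates 1 to 4, so that each time had 2 arrays with pancreas RNA. The array numbers in the labels fall into runs, and all 4 arrays of 9 h share a run with 3 h replicates 1 and 2, while 3 h replicates 3 and 4 lie in another run and 5 of the 6 untreated arrays in yet another. Within the shared run 9 h could be compared with 3 h on 4 against 2 arrays, whereas no untreated array lay in that run. A fit with the run as a block reaches 9 h against untreated spleen through the 3 h arrays, which lie in 2 runs. In bulk spleen, fewer cells of a type and less RNA per cell also cannot be told apart. Of 21 values that stood far from the other 3 of their group among the genes described, 12 lay on 9 h replicate 4.

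Between 3 h and 9 h the change was mostly a decline of genes that the injection had induced. At an adjusted p under 0.05, 152 genes or 0.996% of those tested differed between 9 h and 3 h, with 28 genes (0.183%) higher and 124 genes (0.812%) lower at 9 h. Of these, 14 were higher and 71 lower by at least 2-fold. The 4 arrays of 9 h did not overlap the 4 arrays of 3 h for 142 of the 152 genes. Over all 14449 genes measured on the 8 arrays, 352 genes were separated without overlap in the higher and 683 in the lower direction, and the median difference of all genes tested was -0.01. Within the shared run 5 genes passed, all of them lower at 9 h, namely Ccl4, Nfkbiz, Nabp1, Zfp46 and Adamts4. All 152 genes kept their sign there, and the median size of their difference was 1.04 in the shared run, as with all arrays. With the run as a block, 62 genes passed, 13 higher and 49 lower. Without the 4 arrays that held pancreas RNA, 8 of the 152 passed and all 152 kept their sign, with a median size of 1.07. Within the shared run and without these arrays, the 9 h and 3 h arrays used are among those that picked the 152 genes. The kept signs and sizes are therefore no separate support. Leaving out 3 h replicate 2 brought the count to 77, its lowest, and leaving out 9 h replicate 4 brought it to 168, its highest. Of the 78 called genes to which the rule for named genes applied, 40 kept an adjusted p under 0.05 whichever of the 8 arrays was left out. These are called stable below, and for the other 38 the array whose omission gave the largest adjusted p is named. With the run as a block, 30 of the 40 stable genes and 9 of the other 38 passed. The adjusted p with the run as a block is given beside each of the 10 stable genes that did not pass there.

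Setting each time against untreated spleen sorted these genes into time classes. At 9 h, 639 genes (4.19%) were higher and 423 (2.77%) lower than in untreated spleen, and at 3 h, 1041 (6.82%) were higher and 479 (3.14%) lower. The 3 contrasts share their arrays, so the class sizes describe the sorting and are no separate tests. A rise waned in 96 genes, which were higher at 3 h than in untreated spleen and lower at 9 h than at 3 h, and 34 of them were still higher than in untreated spleen at 9 h. A rise persisted in 376 genes, which were higher than untreated at both times with a 95% interval of the difference between 9 h and 3 h that lay within 2-fold. In 4 genes the rise was strengthened, and in 5 it first appeared after 3 h. Among the falls, 17 recovered, 159 persisted, 4 deepened and 12 first appeared after 3 h. The other 565 genes that had risen and 299 that had fallen at 3 h met no class, since they neither differed between 9 h and 3 h nor had an interval within 2-fold, or were no longer called against untreated spleen. A further 14 genes differed between 9 h and 3 h without meeting a class. With the run as a block, 30 genes waned, 114 rises persisted, 1 rise strengthened and 4 rises first appeared after 3 h. Of the falls in that fit, 5 recovered, 7 persisted, 0 deepened and 4 first appeared after 3 h.

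**Figure D1:**
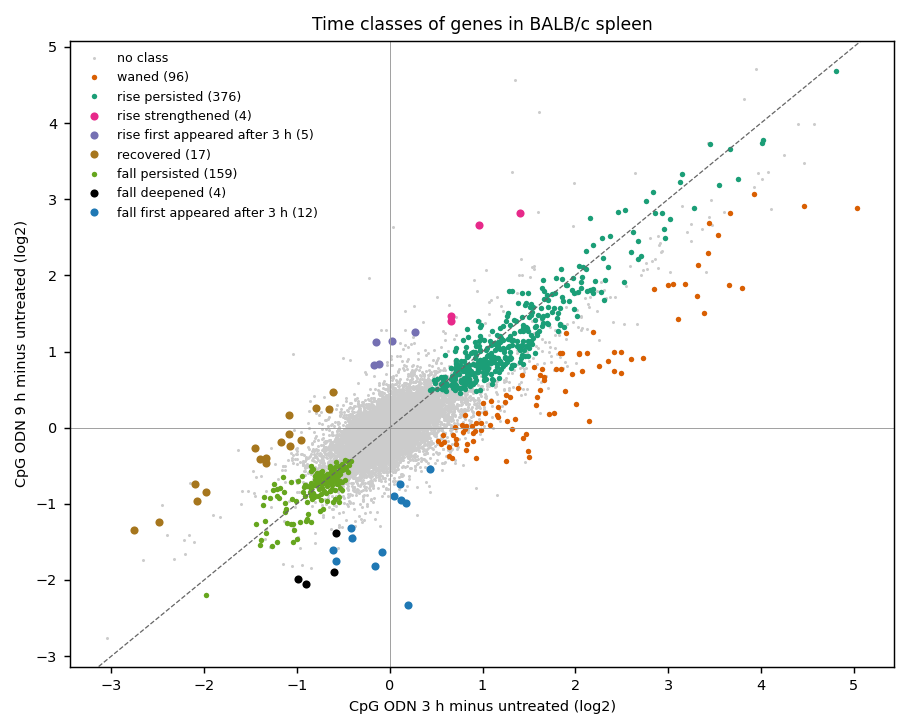
Difference from untreated spleen at 9 h (vertical axis, log2) against the difference at 3 h (horizontal axis, log2) for 15264 genes, with 1 point per gene and colours for the time classes. Both axes share the 6 untreated arrays. The 96 waned genes lie below the diagonal on the right, the 376 genes with a persisting rise lie along it, and the 12 falls that first appeared after 3 h lie below the middle of the plot.

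Chemokines were among the genes with the steepest decline. Ccl4, a chemokine made by activated macrophages and lymphocytes, had levels of 2.05, 1.52, 1.50 and 0.90 at 9 h, against 3.34, 3.79, 3.77 and 3.67 at 3 h. The groups were far apart, and the difference was -2.15 ± 0.28 (adjusted p = 1.95e-05), which is 4.43-fold higher at 3 h. Ccl3, a chemokine that attracts monocytes and lymphocytes, had levels of -1.28, -1.77, -1.15 and -2.19 at 9 h, against 0.02, -0.04, 0.70 and 0.79 at 3 h, a difference of -1.97 ± 0.26 (adjusted p = 4.25e-05). All arrays of 9 h were again below all arrays of 3 h. Cxcl10, the interferon-inducible ligand of CXCR3 on T and NK cells, stood at 5.26, 4.77, 5.10 and 4.08 at 9 h, against 6.28, 6.67, 6.47 and 5.97 at 3 h. Its difference of -1.54 ± 0.31 (adjusted p = 0.00588) left it far above the untreated mean of 1.89. These 3 chemokines were stable.

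The promoter of Cxcl10 is shown because it holds motifs for both arms of the response, the interferon-stimulated response element (ISRE, searched as its core GAAANNGAAA) and the NF-kB consensus, both searched on both strands. The windows are RefSeq sequence of build GRCm38.p6 on the minus strand, with capitals for the motif. Below, the ISRE core begins at base -213 from the annotated start, and the NF-kB matches begin at bases -159 and -103.
Cxcl10 ISRE core, chr5:92349078-92349117: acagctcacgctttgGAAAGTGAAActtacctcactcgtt
Cxcl10 NF-kB, chr5:92349024-92349063: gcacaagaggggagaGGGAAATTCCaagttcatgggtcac
Cxcl10 NF-kB, chr5:92348968-92349007: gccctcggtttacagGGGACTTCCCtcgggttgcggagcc

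Of 21 monocyte and lymphocyte chemokines tested, none was higher and 5 were lower at 9 h than at 3 h, with a median difference of -0.13 against -0.01 for all genes. Besides Ccl4, Ccl3 and Cxcl10 these were Ccl17, a ligand of CCR4 with levels of -0.21 ± 0.37 at 9 h and 0.76 ± 0.14 at 3 h, and Ccl24, an eotaxin that had not risen and is described with the falls. Against untreated spleen 10 of the 21 were higher at 9 h and 11 at 3 h. The rise persisted in 4 of these, Ccl12, Ccl5, Ccl2 and Cx3cl1. Ccl12, a monocyte chemoattractant that binds CCR2, had levels of 4.65, 4.81, 4.45 and 2.08 at 9 h, against 4.26, 4.48, 4.02 and 3.74 at 3 h and a mean of -0.69 in untreated spleen. The arrays of 9 h lay on both sides of those of 3 h, with 9 h replicate 4 lowest of all, and the difference was -0.13 with a 95% interval of -0.92 to 0.67.

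Of the 4 chemokines that attract neutrophils through CXCR2, Cxcl1 and Cxcl5 were lower at 9 h. Cxcl1 had levels of -3.17, -4.01 and -2.69 on the 3 arrays of 9 h that measured it, against -1.78, -1.31, -1.73 and -1.56 at 3 h, a difference of -1.70 ± 0.34 (adjusted p = 0.00611). The 2 sets of arrays did not overlap, and without 9 h replicate 3 the adjusted p was 0.0934 at a difference of -1.34. Cxcl5 averaged -3.36 ± 0.10 at 9 h and -2.32 ± 0.34 at 3 h (adjusted p = 0.0334), with the largest adjusted p, 0.14, without 3 h replicate 2. Cxcl2 averaged 0.50 ± 0.85 at 9 h and 1.66 ± 0.10 at 3 h, did not pass (adjusted p = 0.112), and its 9 h replicate 4 at 1.77 lay among the 3 h arrays. Cxcl3, the remaining member, was slightly higher at 9 h and did not pass (adjusted p = 0.899). It averaged -0.33 ± 0.09 at 9 h and -0.49 ± 0.15 at 3 h. Both Cxcl1 and Cxcl2 had been highest at 1 h, with means of 1.02 and 4.98.

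Among 21 inflammatory cytokines none was higher and 4 were lower at 9 h, with a median difference of -0.37. The mean level, over the 20 measured on all 8 arrays, ran between 0.88 and 1.17 at 9 h. At 3 h it ran between 1.49 and 1.58. Il33, an alarmin of stromal and endothelial cells, had levels of -1.22, -1.64, -0.78 and -1.81 at 9 h, against -0.01, 0.67, 0.35 and -0.20 at 3 h. The groups did not overlap, the difference was -1.57 ± 0.28 (adjusted p = 0.00152), and the 9 h mean of -1.36 lay beside the untreated mean of -1.23. Il15, a growth factor for NK cells and memory CD8 T cells, was at 1.43, 1.00, 1.08 and 1.17 at 9 h, against 2.33, 2.07, 1.90 and 2.68 at 3 h. Its difference of -1.07 ± 0.21 (adjusted p = 0.00473) was stable but did not pass with the run as a block (adjusted p = 0.118), where Il33, also stable, did (adjusted p = 0.0178). Il15 was still higher than in untreated spleen at 9 h by 0.96. Il6, an inducer of the acute phase response, averaged 0.09 ± 0.79 at 9 h and 1.67 ± 0.44 at 3 h (difference -1.58 ± 0.37, adjusted p = 0.0259). Without 9 h replicate 3 its adjusted p was 0.14. Il12b, the shared subunit of interleukins 12 and 23, averaged 3.21 ± 0.30 at 9 h and 4.06 ± 0.30 at 3 h (adjusted p = 0.0308, and 0.141 without 3 h replicate 2). Il12b stayed 2.82 above untreated spleen at 9 h, so that its decline covered a minor share of its rise of 3.67.

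Tnf and Il1b were chosen after their values were seen, because they are the best known early cytokines of this response. Tnf had levels of 2.08, 1.84, 1.74 and 1.29 at 9 h, against 3.26, 1.72, 2.67 and 3.70 at 3 h. The difference of -1.10 ± 0.39 did not pass (adjusted p = 0.252), and 3 h replicate 2 lay inside the range of the 9 h arrays. Il1b averaged 4.58 ± 0.68 at 9 h and 5.26 ± 0.49 at 3 h and did not pass either (adjusted p = 0.691). Both had their highest mean at 1 h, 3.87 for Tnf and 7.46 for Il1b. Of the 21 cytokines 7 were higher than in untreated spleen at 9 h and 10 at 3 h, and the rise persisted in Ebi3, Tnfsf10 and Il18. Edn1, the gene of the vasoconstrictor endothelin, had levels of -1.21, -1.32, -1.34 and -0.68 at 9 h, against 0.54, 0.42, 0.92 and 0.70 at 3 h. The groups did not overlap, and the difference of -1.78 ± 0.31 (adjusted p = 0.00111) was stable.

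Inhibitors of NF-kB that the pathway itself induces were among the genes that declined. Of 20 NF-kB pathway and feedback genes none was higher and 4 were lower at 9 h, with a median difference of -0.81. The mean level, over the 19 measured on all 8 arrays, ran between 1.05 and 1.37 at 9 h. It ran between 1.96 and 2.18 at 3 h and between 0.73 and 1.04 in untreated spleen. Nfkbiz, an atypical inhibitor that also drives secondary response genes such as Il6, had levels of 0.43, 0.54, 0.59 and 0.88 at 9 h, against 2.12, 2.72, 2.37 and 2.38 at 3 h. Its difference was -1.79 ± 0.23 (adjusted p = 1.95e-05), and it passed within the shared run too. Tnfaip3, which encodes the ubiquitin-editing inhibitor A20, stood at 1.03, 0.40, 1.31 and 1.89 at 9 h, against 2.81, 2.87, 2.89 and 2.74 at 3 h. The 3 h arrays lay within a narrow band above all 9 h arrays, and the difference was -1.67 ± 0.24 (adjusted p = 0.000126).

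Birc3, an inhibitor of apoptosis and ubiquitin ligase, averaged 2.29 ± 0.39 at 9 h and 3.57 ± 0.19 at 3 h (difference -1.28 ± 0.21, adjusted p = 0.000738). These 3 genes were stable. Nfkbia, the classical inhibitor that holds NF-kB in the cytoplasm, averaged 1.13 ± 0.23 at 9 h and 1.99 ± 0.17 at 3 h (adjusted p = 0.0334, and 0.136 without 9 h replicate 2). Rel, a subunit of NF-kB itself and chosen after its values were seen, averaged 2.27 ± 0.44 at 9 h and 3.33 ± 0.10 at 3 h and did not pass (adjusted p = 0.0871). Higher than untreated were 4 of the 20 at 9 h and 15 at 3 h, and of those 15, 4 waned, none met the bound for persistence and 11 met no class. The bound depends on each gene's error as well as on its difference.

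Tnfaip3 and Tlr2 promoter windows are shown because both genes waned and both hold matches to the NF-kB consensus. They are RefSeq sequence of GRCm38.p6 on the minus strand, with the match in capitals. The Tnfaip3 matches begin at bases -125 and -12 from the start used, the gene having 2 listed starts. The Tlr2 promoter had 3 matches, of which the pair at -173 and -172 overlap, and the matches at -173 and -8 are printed.
Tnfaip3 NF-kB, chr10:19015511-19015550: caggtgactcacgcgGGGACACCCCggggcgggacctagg
Tnfaip3 NF-kB, chr10:19015398-19015437: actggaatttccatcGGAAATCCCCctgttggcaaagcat
Tlr2 NF-kB, chr3:83841757-83841796: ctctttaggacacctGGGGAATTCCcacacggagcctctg
Tlr2 NF-kB, chr3:83841592-83841631: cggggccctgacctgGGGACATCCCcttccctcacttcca

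Tlr2 and Cd14, which bind bacterial products, declined, and no difference passed for Tlr9, the receptor of CpG DNA. Of 21 Toll-like receptors, adaptors and IRAK kinases none was higher and these 2 were lower at 9 h, and the list's median difference was -0.04. Tlr2, a cell-surface receptor for lipoproteins, had levels of 0.29, 0.79, 0.69 and 0.52 at 9 h, against 2.24, 1.84, 2.31 and 2.67 at 3 h. All 9 h arrays lay below all 3 h arrays, and the difference was -1.69 ± 0.31 (adjusted p = 0.00247). Cd14, the co-receptor that hands lipopolysaccharide to TLR4, was at -0.02, 0.03, 0.25 and 1.88 at 9 h, against 2.45, 2.12, 2.48 and 2.59 at 3 h. Its 9 h replicate 4 stood apart from the other 9 h arrays and still below every 3 h array, and the difference was -1.88 ± 0.31 (adjusted p = 0.000738). Both were stable, and with the run as a block Cd14 did not pass (adjusted p = 0.0635).

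Tlr9, Tlr7, Myd88 and Irak3 were the members of this list whose rise persisted, and they were chosen after their values were seen. Tlr9 itself had levels of 1.12, 0.66, 0.59 and 0.68 at 9 h, against 0.79, 0.82, 0.58 and 0.59 at 3 h and a mean of 0.26 in untreated spleen. The groups overlapped, and the difference was 0.06 with a 95% interval of -0.25 to 0.38. Tlr7, the endosomal receptor for single-stranded RNA, averaged 4.20 ± 0.26 at 9 h and 4.54 ± 0.27 at 3 h. Myd88, the adaptor of both, averaged 1.46 ± 0.25 at 9 h and 1.80 ± 0.16 at 3 h, and Irak3, an IRAK that dampens Toll-like receptor signals, averaged 2.82 ± 0.25 at 9 h and 3.04 ± 0.20 at 3 h. Their adjusted p-values between 9 h and 3 h were 0.79, 0.741 and 0.871.

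Transient transcription factors and regulators of mRNA decay showed the decline in part. Of 26 immediate early genes none was higher and 3 were lower at 9 h, Maff, Gadd45b and Ier5. Gadd45b, a stress sensor that acts on MAP kinase signalling, had levels of 0.73, 0.39, 0.76 and -0.17 at 9 h, against 1.36, 1.42, 1.67 and 1.90 at 3 h. The groups did not overlap, the difference of -1.16 ± 0.22 (adjusted p = 0.00372) was stable but did not pass with the run as a block (adjusted p = 0.15). Gadd45b was still 1.89 above untreated spleen at 9 h. Maff, a small MAF factor, differed by -1.15 ± 0.22 (adjusted p = 0.00305, stable, and 0.159 with the run as a block) on the probe used, while a second probe of the gene gave 0.43. Ier5 differed by -0.95 (adjusted p = 0.0278, and 0.166 without 3 h replicate 2). Fos and Egr1, chosen after their values were seen, had means of 0.45 and -0.65 at 1 h and were not called between 9 h and 3 h. Their means were -3.21 and -3.38 at 9 h, -2.50 and -3.26 at 3 h, and -3.66 and -3.38 in untreated spleen.

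Of 13 MAP kinase phosphatases and mRNA decay factors, Zc3h12c and Dusp1 were lower at 9 h and none was higher. Zc3h12c, a relative of the RNase Regnase-1, averaged -0.12 ± 0.14 at 9 h and 1.01 ± 0.10 at 3 h, and its difference of -1.13 ± 0.21 (adjusted p = 0.00305) was stable, with an adjusted p of 0.0522 with the run as a block. Dusp1, which inactivates p38 and JNK, had levels of -1.23, -0.68, -0.57 and 1.45 at 9 h, against 1.41, 0.94, 1.29 and 0.62 at 3 h. Its groups overlapped because of 9 h replicate 4, and its adjusted p of 0.0401 became 0.238 without 9 h replicate 1. Socs3, the STAT3-induced inhibitor of interleukin 6 signalling, was the only one of 20 JAK-STAT and SOCS genes that differed. Its levels were -0.48, 0.25, -0.34 and -0.40 at 9 h, against 0.82, 1.64, 0.61 and 0.70 at 3 h, without overlap (difference -1.18 ± 0.26, adjusted p = 0.0153, and 0.109 without 3 h replicate 2). Socs1, which is induced by interferons and limits their signal, was among the genes whose rise persisted.

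**Figure D2:**
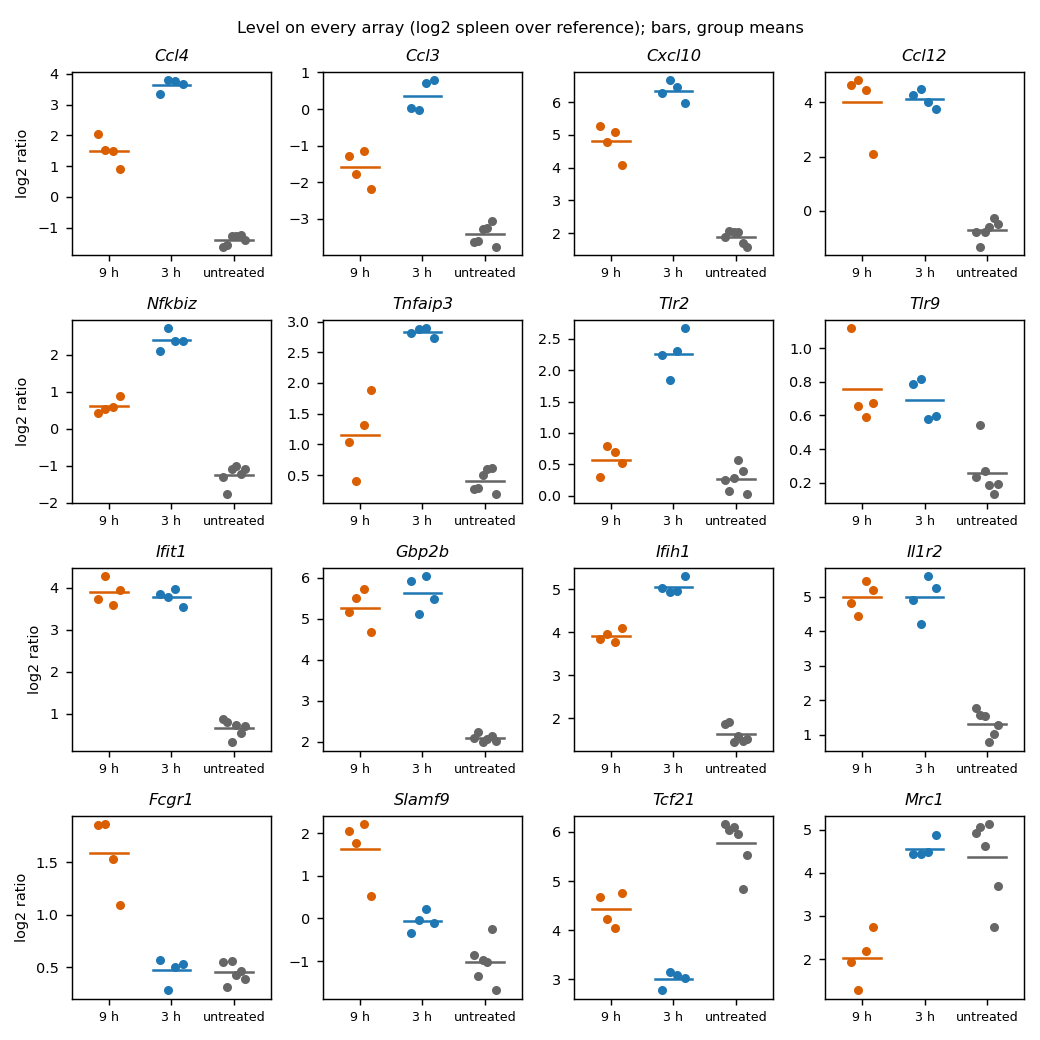
Level on every array (vertical axis, log2 ratio of spleen over reference, each array centred on its median) for 16 genes, with the 4 arrays of 9 h on the left, the 4 arrays of 3 h in the middle and the 6 untreated arrays on the right of each panel, and bars at the group means; the vertical scale differs between panels. Ccl4, Nfkbiz, Tnfaip3 and Tlr2 are lower at 9 h than at 3 h on every array, Ifit1, Gbp2b and Tlr9 overlap between 9 h and 3 h, and Mrc1 at 9 h lies below all arrays of 3 h.

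Several waned genes belong to activation, metabolism and cell death. Nabp1, a single-stranded DNA binding protein of the DNA repair machinery, had levels of 0.57, 0.18, 0.77 and 1.10 at 9 h, against 2.75, 2.57, 2.83 and 2.69 at 3 h and a mean of 0.56 in untreated spleen. The arrays of 9 h lay around the untreated mean, and the difference was -2.06 ± 0.24 (adjusted p = 7.04e-06). Zfp46, a zinc finger gene, was at -0.61, 0.08, -0.32 and 0.32 at 9 h, against 1.62, 2.13, 1.58 and 1.66 at 3 h, with the smallest adjusted p of all genes (6.80e-07). Adamts4, a protease of the extracellular matrix, averaged -1.11 ± 0.32 at 9 h and 0.69 ± 0.15 at 3 h (difference -1.79 ± 0.30). All 3 were stable and passed within the shared run, although Adamts4 did not pass without the arrays that held pancreas RNA.

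Cd69, an early activation marker that retains lymphocytes in lymphoid organs, was at 3.06, 3.02, 2.80 and 3.50 at 9 h, against 4.24, 4.53, 4.95 and 5.42 at 3 h. All 9 h arrays lay below all 3 h arrays and above the untreated mean of 1.67, and the difference of -1.69 ± 0.32 (adjusted p = 0.00318) was stable. With the run as a block the difference of Cd69 was -1.29 and did not pass (adjusted p = 0.222). Ch25h, which makes 25-hydroxycholesterol, had levels of 0.24, -0.26, 0.37 and 0.14 at 9 h, against 1.22, 2.11, 1.63 and 1.86 at 3 h. Its difference of -1.58 ± 0.25 (adjusted p = 0.000445) was stable, and Ch25h also passed without the arrays that held pancreas RNA. Of 15 enzymes of arginine, nitric oxide and immune metabolism, Ch25h, the cystine transporter gene Slc7a11 and the mitochondrial superoxide dismutase gene Sod2 were lower and none was higher. Slc7a11 differed by -0.76 (adjusted p = 0.0308, and 0.171 without 3 h replicate 2) and Sod2 by -0.66 (adjusted p = 0.0354, and 0.179 without 3 h replicate 3).

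Of 18 apoptosis regulators Fas and Casp4 were lower at 9 h and none was higher. Fas, the death receptor, stood at 0.92, 1.28, 0.63 and 1.19 at 9 h, against 2.32, 2.09, 2.49 and 2.73 at 3 h, without overlap (difference -1.40 ± 0.24, adjusted p = 0.000873, stable). Casp4, the intracellular sensor of lipopolysaccharide, averaged 1.69 ± 0.23 at 9 h and 2.82 ± 0.24 at 3 h (difference -1.13 ± 0.24, adjusted p = 0.0114, and 0.0696 without 3 h replicate 2) and was still 1.87 above untreated spleen at 9 h. Irf4, a factor of activated B cells and plasma cells, averaged -0.70 ± 0.16 at 9 h and 0.37 ± 0.19 at 3 h, a stable difference of -1.06 ± 0.21 (adjusted p = 0.00543, and 0.115 with the run as a block), and was the only one of 8 plasma cell genes that differed. Pfkfb3, an activator of glycolysis, was the only one of 19 glycolysis genes that differed, by -0.86 ± 0.21 (adjusted p = 0.0335, and 0.161 without 3 h replicate 2). Gzmd, a granzyme gene, was the only one of 10 cytotoxic granule genes that differed, with levels of -0.60, 0.21, -0.50 and -0.45 at 9 h, against 0.51, 0.70 and 0.39 on the 3 arrays of 3 h that measured it. Its difference of -0.87 (adjusted p = 0.0334) passed under 2 of the 8 omissions, with an adjusted p of 0.178 without 3 h replicate 3 and of 0.245 with the run as a block. Ank3 fell by 1.69 on the probe used, a stable difference, and its other 3 probes gave between -0.99 and -0.09. Ncoa1, a coactivator of nuclear receptors, fell by 0.85 (adjusted p = 0.0426, and 0.19 without 3 h replicate 4) on the probe used, and its second probe gave 0.27.

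Most interferon-stimulated genes remained above untreated spleen at 9 h. Of 44 such genes tested, 39 were higher than untreated at 9 h and 40 at 3 h, and between the times none was higher and 3 were lower at 9 h, with a median difference of -0.24. The highest mean level of the list at 9 h, 2.83, lay above the lowest at 3 h, 2.76, so that the times overlapped. The rise persisted in 27, waned in 3 and met no class in 10. Ifit1, which binds foreign RNA without the host's cap methylation, had levels of 3.72, 4.28, 3.60 and 3.96 at 9 h, against 3.86, 3.79, 3.97 and 3.54 at 3 h and a mean of 0.66 in untreated spleen. The groups overlapped, and the difference was 0.10 with a 95% interval of -0.45 to 0.65. Mx1, a GTPase that blocks influenza virus in mice that carry a functional allele, averaged 4.30 ± 0.23 at 9 h and 4.55 ± 0.28 at 3 h, against 0.53 ± 0.44 in untreated spleen. Oasl1 averaged 2.17 ± 0.18 at 9 h and 2.56 ± 0.38 at 3 h, and Phf11d averaged 3.22 ± 0.25 at 9 h and 3.50 ± 0.33 at 3 h. The second probes of Mx1 and Oasl1 gave differences of -0.06 and -0.17. Isg15 and Irf7 were also among the 27, and Irf7, the factor that drives interferon alpha genes, averaged 3.07 ± 0.40 at 9 h and 2.71 ± 0.48 at 3 h. Slfn3, a schlafen gene outside that list, averaged 3.55 ± 0.71 at 9 h and 3.27 ± 0.35 at 3 h, against -0.17 ± 0.40 in untreated spleen.

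The 3 interferon-stimulated genes of the list that waned were Ifih1, Eif2ak2 and Ifi205. Ifih1, the RNA sensor MDA5, had levels of 3.85, 3.97, 3.77 and 4.11 at 9 h, against 5.04, 4.94, 4.97 and 5.31 at 3 h. The spread within each time was small, and the difference was -1.14 ± 0.17 (adjusted p = 0.000152), with Ifih1 still 2.29 above untreated spleen. Eif2ak2, the kinase PKR that stops translation on double-stranded RNA, averaged 2.30 ± 0.23 at 9 h and 3.33 ± 0.30 at 3 h (difference -1.04 ± 0.19, adjusted p = 0.00239). Ifi205 averaged 3.19 ± 0.19 at 9 h and 4.70 ± 0.33 at 3 h (adjusted p = 6.59e-05), with its other 4 probes between -1.51 and -0.70. All 3 were stable. Ifi202b, from the same cluster of near-identical p200 family genes, averaged 0.67 ± 0.13 at 9 h and 1.68 ± 0.19 at 3 h (adjusted p = 0.0178, and 0.0934 without 3 h replicate 2). Probes of this family may read each other's transcripts, so the values of its single members are uncertain. Rnf213 averaged 2.52 ± 0.17 at 9 h and 3.27 ± 0.12 at 3 h (adjusted p = 0.025, and 0.0987 without 3 h replicate 2).

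ISRE windows of a waned gene, Ifih1, and of 2 genes whose rise persisted, Ifit1 and Gbp2b, are set side by side because the same core occurs in both classes. They are RefSeq sequence of GRCm38.p6, on the minus strand for Ifih1 and the plus strand for Ifit1 and Gbp2b, with the core or its reverse complement in capitals. It begins at base 32 after the start in Ifih1, at -104 and -85 in Ifit1, and at -137 in Gbp2b.
Ifih1 ISRE core, chr2:62646206-62646238: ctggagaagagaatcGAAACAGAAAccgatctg
Ifit1 ISRE core, chr19:34640770-34640809: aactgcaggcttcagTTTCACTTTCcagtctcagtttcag
Ifit1 ISRE core, chr19:34640789-34640828: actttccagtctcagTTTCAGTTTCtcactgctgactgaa
Gbp2b ISRE core, chr3:142594695-142594734: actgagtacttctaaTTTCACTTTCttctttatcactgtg

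In the promoters of all genes tested, taken from 250 bases before to 50 after the start, the NF-kB consensus occurred in 4.95%, the ISRE core in 3.18% and the interferon-gamma activated sequence (GAS, TTCNNNGAA) in 7.43% of 12120 promoters. Among the 79 waned genes with a promoter, 15 (19%) held an NF-kB match, 7 (8.86%) an ISRE core and 8 (10.1%) a GAS match. Among the 299 genes with a persisting rise and a promoter, 18 (6.02%) held an NF-kB match, 37 (12.4%) an ISRE core and 30 (10%) a GAS match. A match describes letters in these windows, and no test was made of these shares.

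No gene passed between 9 h and 3 h on the list of interferon-gamma-induced GTPases and related genes or on the 2 lists of MHC presentation. Of all genes tested 0.996% passed, so no call is a common outcome for lists of this size. Of 19 interferon-gamma-induced GTPases and related genes, 16 were higher than untreated at each time, and the rise persisted in 13, among them Irgm1, Igtp, Gbp4 and Irf1. The list's median difference was -0.14, and its mean level ran between 3.55 and 3.74 at 9 h, between 3.78 and 3.96 at 3 h and between 2.02 and 2.34 in untreated spleen, so that every 9 h array lay below every 3 h array and far above the untreated ones. Gbp2b, a guanylate-binding protein outside that list that acts on vacuoles of intracellular pathogens, had levels of 5.15, 5.51, 5.71 and 4.68 at 9 h, against 5.92, 5.11, 6.03 and 5.47 at 3 h and a mean of 2.08 in untreated spleen. The groups overlapped (difference -0.37, 95% interval -0.94 to 0.20). Of 17 genes of MHC class I presentation, 9 were higher than untreated at 9 h and 7 at 3 h, and the rise of all 7 persisted, including the peptide transporter gene Tap1 and the immunoproteasome gene Psmb9. Tap1 averaged 2.43 ± 0.54 at 9 h and 2.45 ± 0.46 at 3 h. The MHC class II list held 12 genes.

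Co-stimulatory genes behaved less evenly. Of 16 genes of dendritic cell maturation 1 was lower at 9 h, Cd86, the ligand of CD28. It had levels of 2.85, 2.70, 2.85 and 3.03 at 9 h, against 3.97, 3.69, 4.24 and 4.08 at 3 h, without overlap (difference -1.14 ± 0.26, adjusted p = 0.0198, and 0.0887 without 3 h replicate 3). Cd86 was not called against untreated spleen at 3 h, so it met no class. The median difference of the list was -0.48, and of the 12 members that were higher at 3 h, 4 persisted and 8 met no class. The checkpoint ligand genes Cd274 and Pdcd1lg2 were among the 4.

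Other large rises that persisted were those of myeloid and cytotoxic genes. Il1r2, the decoy receptor for interleukin 1, had levels of 4.83, 4.44, 5.47 and 5.20 at 9 h, against 4.91, 4.22, 5.59 and 5.24 at 3 h and a mean of 1.32 in untreated spleen. The arrays of the 2 times overlapped almost fully, and the difference was -0.01 with a 95% interval of -0.60 to 0.58. Mmp8, the neutrophil collagenase, averaged 4.94 ± 0.56 at 9 h and 4.76 ± 0.58 at 3 h. Its second probe gave -0.21 in place of 0.18, and both are small beside the rise over the untreated mean of 1.61. Gzmb, the cytotoxic granule protease granzyme B, had levels of 5.65, 5.76, 5.71 and 4.35 at 9 h, against 4.07, 5.83, 5.30 and 5.23 at 3 h and a mean of 2.27 in untreated spleen. A single array was low at each time, 9 h replicate 4 and 3 h replicate 1.

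**Figure D3:**
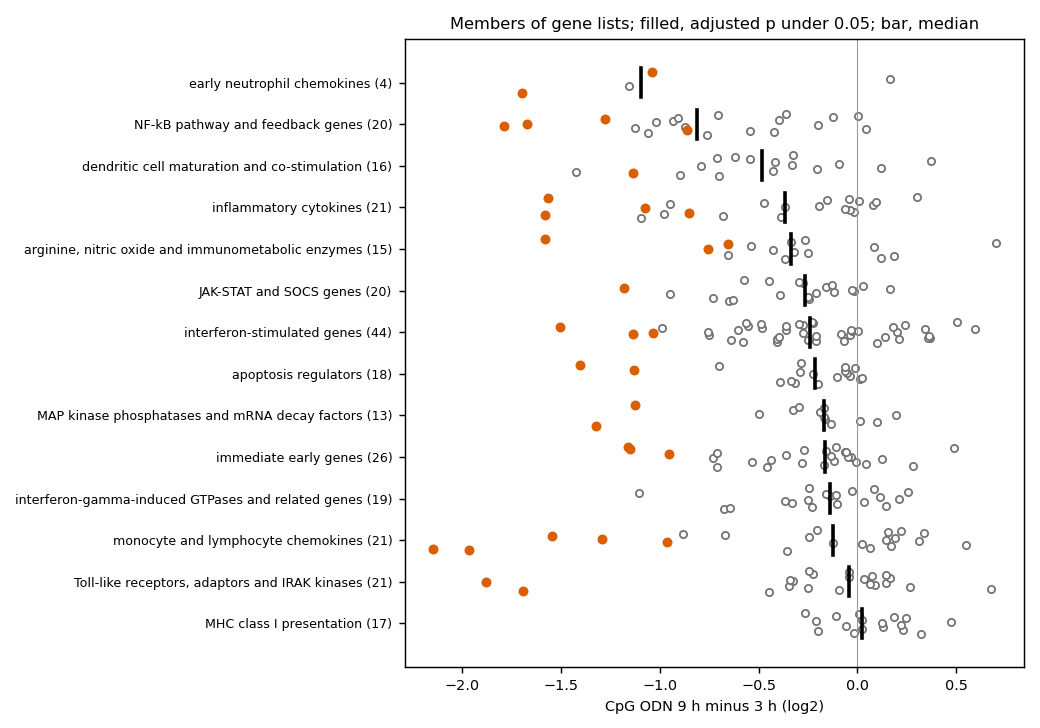
Difference between 9 h and 3 h (horizontal axis, log2, 9 h minus 3 h) of every tested member of 14 gene lists, with 1 point per gene, filled where the adjusted p was under 0.05, and a bar at the median of each list. The medians run from -1.10 for the neutrophil chemokines and -0.81 for the NF-kB genes to 0.02 for MHC class I presentation, and the median of all genes is -0.01.

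In 4 genes the rise at 3 h was greater at 9 h, and Slamf9, an activating receptor of the SLAM family on macrophages and dendritic cells, changed most. It had levels of 2.06, 1.76, 2.21 and 0.53 at 9 h, against -0.35, -0.03, 0.23 and -0.11 at 3 h and a mean of -1.03 in untreated spleen. All 9 h arrays were above all 3 h arrays, with 9 h replicate 4 nearest to them, and the difference of 1.70 ± 0.30 (adjusted p = 0.00188) was stable. Fcgr4, the activating Fc receptor for IgG2 antibodies on monocytes, macrophages and neutrophils, stood at 4.20, 4.08, 3.76 and 3.96 at 9 h, against 3.19, 1.83, 2.92 and 2.34 at 3 h. The difference was 1.43 ± 0.32 (adjusted p = 0.0198), and without 3 h replicate 2 it was 1.18 with an adjusted p of 0.125. Cd300lf, an inhibitory receptor of myeloid cells, averaged 1.57 ± 0.15 at 9 h and 0.82 ± 0.41 at 3 h (adjusted p = 0.03, and 0.173 without 3 h replicate 2). Cts7, a cathepsin known from mouse placenta, averaged -1.46 ± 0.15 at 9 h and -2.27 ± 0.32 at 3 h (adjusted p = 0.0308, and 0.136 without 3 h replicate 2).

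A further 5 genes were not called at 3 h and were first higher at 9 h. Fcgr1, the high-affinity Fc receptor for IgG, had levels of 1.86, 1.86, 1.53 and 1.10 at 9 h, against 0.57, 0.28, 0.50 and 0.53 at 3 h and a mean of 0.45 in untreated spleen. The 3 h arrays lay at the untreated level, and the difference of 1.12 ± 0.23 (adjusted p = 0.00693) was stable. Its mean was 1.60 at 24 h and 1.17 at 72 h. Raver2, an RNA-binding protein gene, was at 1.97, 1.58, 2.13 and 2.23 at 9 h, against 1.23, 0.49, 1.04 and 1.24 at 3 h, a stable difference of 0.98 ± 0.19 (adjusted p = 0.00369). Itgax, the integrin CD11c of dendritic cells and some macrophages, averaged 3.40 ± 0.25 at 9 h and 2.41 ± 0.53 at 3 h (adjusted p = 0.0438, and 0.222 without 3 h replicate 2). It was the only one of 15 conventional dendritic cell genes that rose. Sh2d1b1, an adaptor of SLAM family receptors, averaged 1.50 ± 0.33 at 9 h and 0.56 ± 0.19 at 3 h (adjusted p = 0.0361). Its largest adjusted p was 0.117, without 9 h replicate 4. Ang2, an angiogenin-family ribonuclease gene, had levels of 0.39, 3.02, 0.94 and 0.97 at 9 h, against -0.07, -0.15, 0.18 and 0.28 at 3 h. Its highest value lay on 9 h replicate 2, the array with the highest pancreas level of the 8. Without that array the difference was 0.71 (adjusted p = 0.0813) in place of 1.27 (adjusted p = 0.0269), and without 3 h replicate 2 the adjusted p was 0.0987.

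Promoter windows of both Fc receptor genes are shown because these are the Fc receptors for IgG among the strengthened and first rises. They are RefSeq sequence of GRCm38.p6, on the minus strand for Fcgr1 and the plus strand for Fcgr4, with the match in capitals. The GAS match of Fcgr1 begins at base -109, the NF-kB match of Fcgr4 at -152 and its ISRE core at -73.
Fcgr1 GAS, chr3:96294055-96294093: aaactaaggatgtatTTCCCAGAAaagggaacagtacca
Fcgr4 NF-kB, chr1:171018759-171018798: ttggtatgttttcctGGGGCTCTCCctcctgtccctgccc
Fcgr4 ISRE core, chr1:171018838-171018877: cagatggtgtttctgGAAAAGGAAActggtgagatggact

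Falls at 3 h that had recovered at 9 h were fewer. Tcf21, a transcription factor of spleen mesenchyme, led the 17 genes with levels of 4.67, 4.22, 4.04 and 4.75 at 9 h, against 2.77, 3.15, 3.08 and 3.03 at 3 h and a mean of 5.77 in untreated spleen. It was higher at 9 h on every array by 1.42 ± 0.31 (adjusted p = 0.0148) and still 1.35 below untreated spleen, while the adjusted p was 0.067 without 9 h replicate 1. A second probe of Tcf21 gave 1.41. Gas1, a gene of growth arrest that is expressed in fibroblasts, was at -4.34, -3.47, -3.75 and -3.74 at 9 h, against -5.53, -4.95, -5.34 and -4.92 at 3 h. Its difference of 1.36 ± 0.25 (adjusted p = 0.00215) was stable. Tmem273 rose by 1.25 ± 0.19 (adjusted p = 0.000285), and it was the single gene with a rise that passed without the arrays that held pancreas RNA. Slc45a3 and Pcolce2, an enhancer of procollagen processing, differed by 1.18 ± 0.23 (adjusted p = 0.00494) and 1.08 ± 0.21 (adjusted p = 0.00404). Gas1, Tmem273, Slc45a3 and Pcolce2 were stable, and with the run as a block Slc45a3 did not pass (adjusted p = 0.0777).

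Among the recovered genes, Hhex, a homeobox factor of B cells and endothelium, averaged 2.29 ± 0.25 at 9 h and 1.34 ± 0.20 at 3 h (adjusted p = 0.0308, and 0.113 without 9 h replicate 1). Pla2g15, a lysosomal phospholipase gene, averaged 0.73 ± 0.35 at 9 h and -0.26 ± 0.18 at 3 h (adjusted p = 0.0308, and 0.139 without 9 h replicate 3). Arvcf averaged -0.61 ± 0.22 at 9 h and -1.74 ± 0.37 at 3 h (adjusted p = 0.0138, and 0.0875 without 3 h replicate 4), and Kcnj10, a potassium channel gene, averaged 1.61 ± 0.08 at 9 h and 0.63 ± 0.08 at 3 h (adjusted p = 0.0458, and 0.141 without 3 h replicate 2). Scamp5, Rims3 and Atp13a2 differed by 1.26, 1.11 and 1.05 on the probes used, while their second probes gave 0.14, -0.09 and -0.05, so the rise was seen with a single probe of each. Scamp5 was stable. The largest adjusted p was 0.124 for Rims3, without 3 h replicate 2, and 0.179 for Atp13a2, without 9 h replicate 2. Of the 17, 5 were still called lower than untreated at 9 h.

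The largest difference among the 152 genes belonged to a fall that first appeared after 3 h. Mrc1, the mannose receptor CD206 of red pulp macrophages and sinus endothelium, had levels of 1.93, 1.27, 2.18 and 2.75 at 9 h, against 4.42, 4.44, 4.48 and 4.86 at 3 h and a mean of 4.36 ± 0.95 in untreated spleen (n = 6). All 9 h arrays were below all 3 h arrays, and the difference of -2.52 ± 0.40 (adjusted p = 0.000445), or 5.73-fold higher at 3 h, was stable. The untreated arrays spread between 2.75 and 5.13, so that the lowest of them touched the highest array of 9 h. Means of Mrc1 were 4.86 at 24 h and 5.10 at 72 h. Mrc1 was the only one of 14 red pulp and marginal zone macrophage genes that differed, and the list's mean level ran between 2.77 and 2.93 at 9 h and between 2.71 and 3.14 at 3 h.

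Slc15a2, a transporter of di- and tripeptides, had levels of 1.37, 0.64, 1.67 and 1.33 at 9 h, against 3.04, 2.68, 3.31 and 2.58 at 3 h and a mean of 3.07 in untreated spleen. The groups did not overlap, and the difference was -1.65 ± 0.23 (adjusted p = 0.000114). Hs6st2, a heparan sulfate sulfotransferase gene, fell by 1.55 ± 0.26 (adjusted p = 0.000738), with 3 other probes between -1.43 and 0.02. Csdc2 averaged 0.92 ± 0.24 at 9 h and 2.09 ± 0.45 at 3 h (adjusted p = 0.00494). Glipr1 averaged -0.30 ± 0.31 at 9 h and 0.64 ± 0.17 at 3 h (adjusted p = 0.00253). These 4 were stable, and with the run as a block Csdc2 (adjusted p = 0.141) and Glipr1 (adjusted p = 0.0987) did not pass. Adgre4, an adhesion receptor of the F4/80 family on mouse macrophages, had levels of 5.12, 4.24, 4.86 and 4.41 at 9 h, against 5.74, 5.72, 5.91 and 5.94 at 3 h. Its difference was -1.17 ± 0.25 (adjusted p = 0.0123, and 0.0668 without 9 h replicate 2). Esm1, a proteoglycan gene of endothelium, averaged -0.24 ± 0.22 at 9 h and 0.75 ± 0.14 at 3 h (adjusted p = 0.0217, and 0.0839 without 3 h replicate 3). The other 5 of the 12 were Rbms3, Fras1, Man2b1, Mcam and Calcrl, of which Fras1 and Man2b1 had second probes at -0.03 and -0.36 in place of -1.05 and -0.91. The largest adjusted p was 0.125 for Rbms3 and 0.0721 for Fras1, both without 3 h replicate 2, and 0.19 for Man2b1, without 9 h replicate 3. Calcrl was measured on 3 arrays of 3 h and differed by -0.86 ± 0.21 (adjusted p = 0.0376). Its 9 h replicate 4 at 2.89 lay within the range of these arrays, 2.71 to 2.95, so the times overlapped.

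The fall deepened in 4 genes. Ccl24, the eotaxin that attracts eosinophils through CCR3, had levels of -1.24, -0.88, -0.82 and -0.69 at 9 h, against 0.26, -0.04, 0.88 and 0.43 at 3 h and a mean of 0.98 in untreated spleen. The groups did not overlap, and the difference was -1.29 ± 0.21 (adjusted p = 0.000722). Cadm1, an adhesion molecule of cross-presenting dendritic cells, was at -0.72, -1.09, -0.45 and -0.08 at 9 h, against 0.48, 0.73, 0.63 and 0.41 at 3 h (difference -1.15 ± 0.20, adjusted p = 0.00109). Both were stable. Naaa, a lysosomal amidase gene, averaged -0.32 ± 0.22 at 9 h and 0.68 ± 0.13 at 3 h (adjusted p = 0.0124, and 0.0563 without 9 h replicate 1). Lpl, lipoprotein lipase, averaged -0.60 ± 0.15 at 9 h and 0.20 ± 0.21 at 3 h (adjusted p = 0.0426, and 0.188 without 3 h replicate 3). Lpl was the only one of 10 fat and mesothelium genes that differed.

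Persisting falls were smaller than persisting rises. The median difference of the 159 genes from untreated spleen was -0.73 at 9 h and -0.74 at 3 h, against 1.01 at 9 h and 1.16 at 3 h for the 376 persisting rises. Lipa, the lysosomal acid lipase gene, had levels of 0.25, 0.09, 0.36 and -0.03 at 9 h, against 0.27, -0.20, 0.03 and -0.13 at 3 h and a mean of 1.43 in untreated spleen. The groups overlapped, and the difference was 0.18 with a 95% interval of -0.16 to 0.52. Mmp12, the macrophage elastase, averaged -1.26 ± 0.63 at 9 h and -1.11 ± 0.32 at 3 h, against 0.29 ± 0.23 in untreated spleen. Vegfa, the main growth factor of blood vessels, averaged -2.51 ± 0.78 at 9 h and -2.86 ± 0.24 at 3 h, against -1.49 ± 0.23 in untreated spleen.

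Of the 14 genes that differed without meeting a class, 12 were lower at 9 h. Among them were Cd86 and Ier5, described above, and Rtn1, which fell by 1.72 on the probe used (adjusted p = 0.0334, and 0.175 without 3 h replicate 2) while its other 3 probes gave between -0.54 and -0.00. Tslp, an epithelial and stromal cytokine, averaged -3.46 ± 0.25 at 9 h and -2.18 ± 0.32 at 3 h (adjusted p = 0.0198). The 2 genes that were higher were Pafah2 and Cmklr1, the receptor of chemerin on plasmacytoid dendritic cells and macrophages, which averaged 1.48 ± 0.46 at 9 h and 0.62 ± 0.28 at 3 h (adjusted p = 0.0394). Cmklr1 and Tslp were chosen after their values were seen.

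Calls on cell type gene lists are given here beside the share of 0.996% called among all genes tested. Of 18 monocyte and macrophage genes, Fcgr1 and Fcgr4 were higher and Cd14 was lower at 9 h, with a median difference of 0.13. None of 19 neutrophil genes passed, their median difference was 0.43, and their mean level ran between 2.97 and 3.50 at 9 h, between 2.78 and 3.15 at 3 h and between 1.45 and 2.25 in untreated spleen. No gene passed among 18 T cell, 18 B cell, 18 NK cell, 12 plasmacytoid dendritic cell, 24 erythroid, 13 platelet, 9 mast cell and basophil and 17 endothelial genes. With 0.996% of all genes called, no call is a common outcome for lists of this size. The T cell genes had a median difference of -0.28 and a mean level between 1.06 and 1.55 at 9 h and between 1.42 and 1.76 at 3 h. The B cell genes had a median difference of -0.18, with a mean level between 2.63 and 2.91 at 9 h and between 2.59 and 2.88 at 3 h, and so stayed in the same range at both times. Tcf21 was the single call among 19 genes of spleen mesenchyme and stroma, whose mean level ran between 0.33 and 0.44 at 9 h and between 0.17 and 0.29 at 3 h. The part of these cell type levels in the changes of single genes was not tested.

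**Figure D4:**
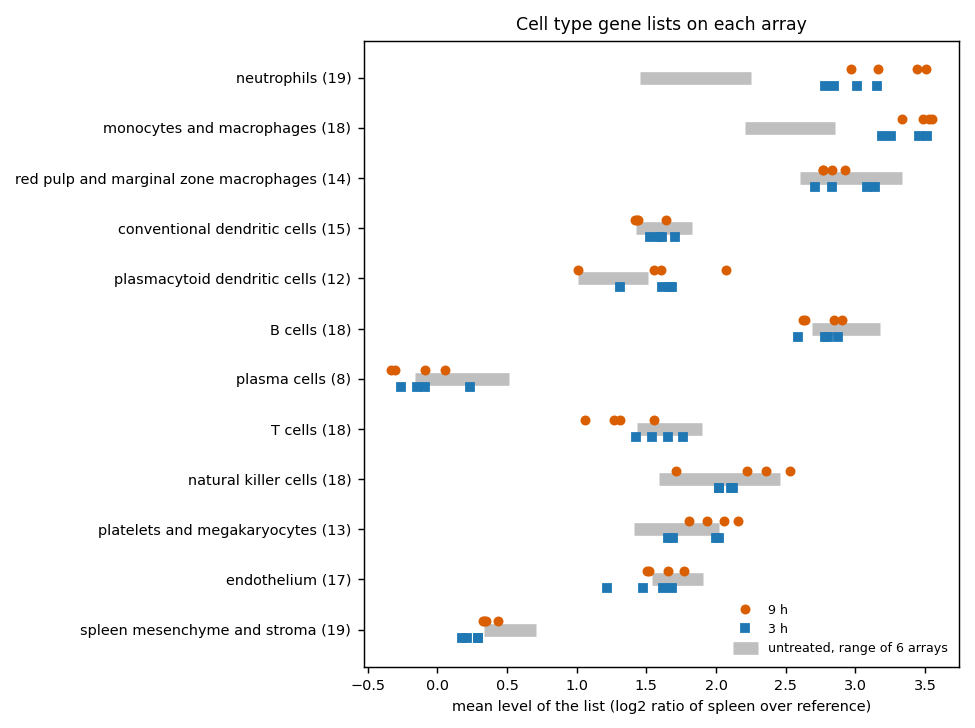
Mean level of 12 cell type gene lists (horizontal axis, log2 ratio of spleen over reference) on each array of 9 h (upper row of points) and 3 h (lower row of points), with a grey bar for the range of the 6 untreated arrays. Neutrophil genes lie between 2.97 and 3.50 at 9 h and between 2.78 and 3.15 at 3 h, above the untreated range. The levels of the 2 times overlap in every list shown except spleen mesenchyme and stroma.

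Further lists had no gene that differed between 9 h and 3 h at an adjusted p under 0.05. These were chemokine receptors, anti-inflammatory cytokines and decoy receptors, type I and III interferons, acute phase proteins, cholesterol synthesis, cell cycle, ribosome biogenesis, the unfolded protein response, heat shock chaperones, glucocorticoid-responsive genes, iron handling and the respiratory chain. With 0.996% of all genes called, no call is a common outcome for lists of this size. Among 19 acute phase and antimicrobial genes, 9 were higher than untreated at each time, and the rise persisted in 3, among them the haptoglobin gene Hp. Among 21 ribosome biogenesis genes, 4 were higher than untreated at 9 h and 11 at 3 h, and those 4 persisted. Of 16 interferon genes listed 10 could be tested, and a single one, Ifnab, was higher than untreated at each time. Ifnb1, Ifna4, Ifna12, Ifna13, Ifnk and Ifnl2 were not tested.

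Over the whole course the classes had distinct shapes, although each class was defined by its values at 3 h and 9 h. The median difference of the 96 waned genes from untreated spleen was 0.28 at 0.5 h, 0.44 at 1 h, 1.57 at 3 h, 0.38 at 9 h, 0.20 at 24 h and 0.05 at 72 h. Their largest rise came at 3 h for 83 genes and at 1 h for 13. Persisting rises had medians of 0.18, 0.38, 1.16, 1.01, 0.76 and 0.52 at these 6 times, so that they remained above the untreated level at 72 h on the median. The 5 rises that first appeared after 3 h had a median of 1.12 at 9 h, 1.15 at 24 h and 0.41 at 72 h. The 12 falls that first appeared after 3 h had a median of -1.39 at 9 h and -0.17 at 24 h, and all 12 had their largest fall at 9 h. Persisting falls had medians of -0.74 at 3 h, -0.73 at 9 h, -0.13 at 24 h and -0.32 at 72 h.

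**Figure D5:**
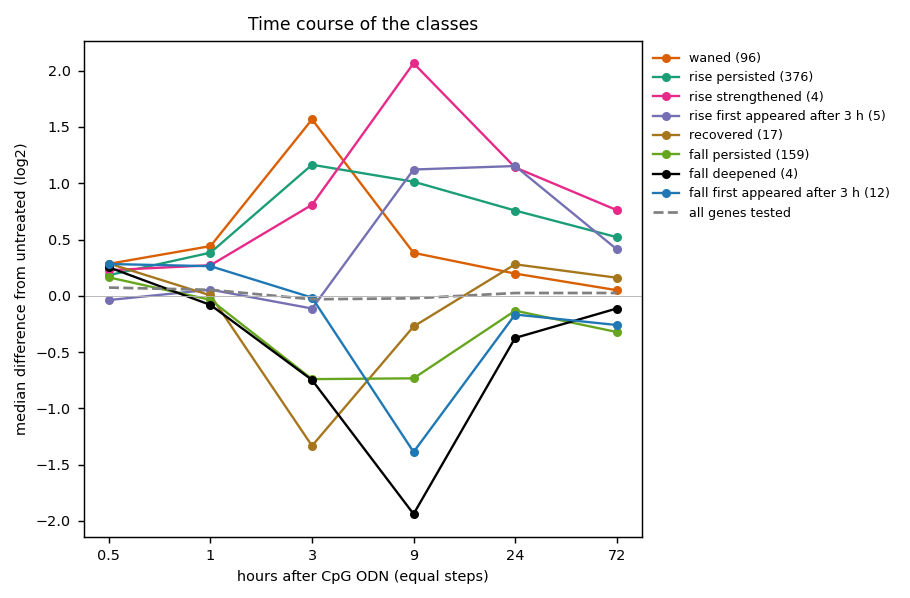
Median difference from untreated spleen (vertical axis, log2) of each time class at 6 times between 0.5 h and 72 h after CpG ODN (horizontal axis, equal steps, not to scale). The classes were defined by their values at 3 h and 9 h. Waned genes peak at 1.57 at 3 h, persisting rises stay at 1.01 at 9 h, and the falls that first appeared after 3 h reach -1.39 at 9 h and -0.17 at 24 h.

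Groups outside the comparison gave values for the same genes at 3 h. Under the control ODN the median difference from untreated spleen was 0.21 for waned genes and 0.25 for persisting rises, against 0.09 for all genes. The CpG mixture gave 1.57 and 1.16 at that time. Both classes were picked by a rise over the same untreated arrays at 3 h after CpG. A CpG median above that of the control ODN was thus built in and is no test of the control ODN. In C57BL/6 spleens at 3 h, the waned genes had a median of 0.87 in TNF-KO mice, without a functional Tnf gene, and 1.00 in their controls. Persisting rises, 372 of them measured there, had a median of 0.80 in TNF-KO mice and 0.81 in controls. The 17 recovered genes had a median of -0.56 in TNF-KO mice and -1.20 in controls, and persisting falls of -0.30 in TNF-KO mice and -0.60 in controls. These medians describe the lists, and the difference between the genotypes was not tested here.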

How the data were processed

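Spleen RNA was measured on 2-colour arrays. Per the series text, the authors corrected the background, removed poor spots and spots dim in both channels, took log2 ratios of Cy5 over Cy3 and applied lowess normalization, and the deposited values are these log2 ratios. The sources used here do not state whether an array holds 1 mouse or several, so p-values measure the spread between these samples. Depth does not apply to arrays, and the number of arrays limits the precision.

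From these values, each array was centred on its median. Of 36607 probes, 26926 had 1 gene symbol, 203 several and 9478 none. A probe had to be measured on over 70% of the 34 BALB/c arrays, and for genes with several probes the one measured on most arrays was kept, the first listed where tied. One limma fit (lmFit and eBayes, version 3.58.1, in R 4.3.3) of 8 group means over these arrays gave all contrasts, with Benjamini-Hochberg adjustment over 15264 genes and a threshold of 0.05. A rise or fall counted as persisting where both times were called against untreated spleen and the 95% interval of the difference lay within 2-fold. The script was tested on simulated data. Promoters were matched for 12120 of the genes.

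The genes described in full were drawn from the 15 largest rises and falls without overlap, up to 10 of each class and 4 of each list with the smallest p. Not every such gene is printed, and the choice among them followed no stated rule. Those left out include Crisp3, the largest persisting fall. Chosen after their values were seen were Ccl17, Ccl5, Ccl2, Cx3cl1, Tnf, Il1b, Ebi3, Tnfsf10, Il18, Rel, Tlr9, Tlr7, Myd88, Irak3, Fos, Egr1, Socs1, Isg15, Irf7, Irgm1, Igtp, Gbp4, Irf1, Tap1, Psmb9, Cd274, Pdcd1lg2, Mcam, Calcrl, Tslp, Pafah2, Cmklr1, Hp and Ifnab. The comparison and the lists were chosen with earlier results of these data known. Alternatives covered scaling, probe choice, array weights, fewer arrays, array-number run, replicate number and each array left out, and those on pancreas RNA were added after seeing the data.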

Additional observations from a re-analysis of the deposited data

Results flagged for a closer look

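In 21 of 249 groups of 4 arrays looked at, 1 array lay far from the other 3, where chance gives about 1 in 20. Of these, 12 lay on 9 h replicate 4, which held no raised pancreas level.

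On that array Ccl12 was low at 2.08, Gzmb at 4.35, Gbp4 at 4.40, Oasl1 at 1.90 and Myd88 at 1.08, all genes of the response that persisted. It was high for Cd14 at 1.88, Cxcl2 at 1.77, Ccl17 at 0.344 and Adamts4 at -0.625, whose other 9 h arrays were lower, and for Tmem273 at 1.14, Esm1 at 0.091 and Naaa at -0.002. Among the other 9 h arrays, Tlr9 was high at 1.12 on replicate 1 and Cts7 low at -1.69 on replicate 2.

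At 3 h, replicate 2 was high for Zfp46 at 2.13, Ier5 at 1.47, Pfkfb3 at 3.16 and Gbp4 at 5.34, and low for Oasl1 at 2.00. Replicate 4 of 3 h was high for Mrc1 at 4.86 and Cd274 at 3.46.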

How the results depend on the processing

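No difference among the 152 genes changed sign under the alternatives that keep 1 value per gene, with 136 of them testable on probes measured on every array. These alternatives reuse arrays that picked the genes, so the kept signs are no separate support. With each probe taken on its own, another probe had the opposite sign for 5 of the 24 called and described genes that have one, namely Maff, Ncoa1, Rims3, Atp13a2 and Hs6st2. The count of 152 genes (28 higher, 124 lower) stayed within 1.5 times without centring (151), with the 8 arrays alone (149), with the mean of all probes (166), with probes measured on every array (136) and with pancreas level as a covariate (167). Similar counts did not always hold the same genes. With the 8 arrays alone 102 of the 152 passed, beside 47 new genes. With the mean of all probes 127 passed, beside 39 new genes. Without centring 150 of the 152 passed, and with pancreas level as a covariate all 152 passed. On probes measured on every array 135 of the 136 testable genes passed. Deviations of same-numbered arrays of 9 h and 3 h correlated at -0.03, -0.18, 0.48 and 0.34, and those of other pairs between -0.40 and 0.41. These values do not settle whether the replicate numbers pair the arrays. With the replicate block 111 genes passed, 85 of them among the 152. Among the 40 genes called stable, Cadm1, Gadd45b, Glipr1, Pcolce2 and Slc45a3 did not pass with it. With arrays scaled to the same median absolute deviation 289 genes passed (49 higher, 240 lower), with 184 waned, 2 strengthened, 32 recovered, 7 deepened and 30 first falls. With quantile normalization 189 passed, 56 higher or 29.6%, with 7 strengthened, 15 first rises, 30 recovered, 280 persisting falls and 8 deepened. With 9 h, 3 h and untreated arrays alone 150 waned, 27 recovered, 271 falls persisted, 7 deepened and 21 first appeared. With array weights 498 passed (114 higher, 384 lower), with 263 waned, 568 persisting, 13 strengthened and 22 first rises, and 64 recovered, 394 persisting, 11 deepened and 68 first falls. With a minimum of 2-fold 85 passed (14 higher, 71 lower), with 55 waned, 174 persisting, 2 strengthened and 2 first rises, and 10 recovered, 17 persisting and 7 first falls. Within the shared run 5 passed (0 higher, 5 lower), and 831 genes had an unadjusted p under 0.05 there. At that threshold unchanged genes alone give about 1 in 20 of those tested, so the 831 are not read as further changes. In the fit over all BALB/c arrays 1432 of 15264 genes had such a p. With the run as a block 62 passed (13 higher, 49 lower), with 30 waned, 114 persisting and 1 strengthened rise, and 5 recovered, 7 persisting, 0 deepened and 4 first falls. Without the 4 arrays that held pancreas RNA 8 passed (1 higher, 7 lower), with 7 waned, 135 persisting, 0 strengthened and 0 first rises, and 1 recovered, 28 persisting, 0 deepened and 0 first falls. The fits on the shared run, on the run as a block, on the compared groups alone and without pancreas RNA have fewer arrays by construction. The causes of the changed counts were not tested. Leaving out 1 array at a time gave 77 to 168 genes, with 87 without 9 h replicate 1, 99 without 9 h replicate 3, 101 without 9 h replicate 2, 77 without 3 h replicate 2, 85 without 3 h replicate 3 and 95 without 3 h replicate 4. These settings gave 13 to 42 higher and 62 to 126 lower, 52 to 88 waned, 268 to 355 persisting, 0 to 6 strengthened and 3 to 12 first rises, and 7 to 20 recovered, 99 to 138 persisting, 1 to 3 deepened and 7 to 21 first falls.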
